A study of Homo sapiens with 6 samples.

Results

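The GADD45 genes encode a family of 3 small stress proteins, GADD45A, GADD45B and GADD45G, and were followed here on 4 of 28026 tested probe sets of a human expression array. They are all the non-control probe sets listed under those symbols in the deposited annotation: 1 for GADD45A, 1 for GADD45B and 2 for GADD45G. The family was chosen because 1 GADD45G probe set was much higher with doxycycline, so the changes of the members between groups are given as a description, without p-values. The cells were MDA-468.shp53, a line of human breast cancer, kept for 8 days in 3D culture with doxycycline (+DOX) or without it (-DOX). The name points to MDA-MB-468, an established line with mutant p53, carrying a short hairpin RNA against p53. All 6 arrays come from this 1 line, with 3 arrays per group, 1 of each group from each of 3 independent experiments. No array of doxycycline-treated cells without the hairpin was analysed here, so effects of the drug and of the hairpin cannot be told apart, and fewer cells of a type and less RNA per cell cannot be told apart either.

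GADD45 proteins have no known enzyme activity and work by binding others. They bind and activate the kinase MAP3K4, which leads to p38 and JNK signalling, they contact CDK1 with cyclin B1, PCNA and the inhibitor CDKN1A, and they have been linked to active DNA demethylation with TET and TDG proteins. GADD45A is a classic target of wild-type p53, GADD45B responds to NF-kB and TGF-beta, and GADD45G was found as a cytokine-induced gene that is often silenced in tumours.

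Promoter sequences are shown because GADD45G and GADD45B lay on opposite sides of 0 between the groups while their start regions hold the same core elements. RefSeq sequences of build GRCh38.p14, from 250 bases before to 50 after the annotated start, were matched by symbol for 2 of the 3 genes, GADD45B at chr19:2475877-2476176 and GADD45G at chr9:89604762-89605061, both on the plus strand. Capitals mark the TATA box (TATANAA), the CCAAT box (CCAAT), the E-box (CACGTG) and the core of the C/EBP-ATF response element (TGATGNAA), searched on both strands.
GADD45B: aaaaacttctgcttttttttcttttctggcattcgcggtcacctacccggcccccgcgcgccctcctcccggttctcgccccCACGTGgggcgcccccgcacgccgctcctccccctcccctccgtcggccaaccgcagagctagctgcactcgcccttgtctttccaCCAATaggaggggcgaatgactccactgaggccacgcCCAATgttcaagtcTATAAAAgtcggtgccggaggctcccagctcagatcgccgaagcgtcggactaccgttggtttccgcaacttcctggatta
GADD45G: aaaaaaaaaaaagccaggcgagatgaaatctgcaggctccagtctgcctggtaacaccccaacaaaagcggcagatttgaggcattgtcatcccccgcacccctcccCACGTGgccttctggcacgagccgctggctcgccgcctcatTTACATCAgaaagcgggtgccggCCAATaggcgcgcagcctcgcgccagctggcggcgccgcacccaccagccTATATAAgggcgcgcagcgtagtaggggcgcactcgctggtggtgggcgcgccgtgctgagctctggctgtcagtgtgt

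Both promoters held a TATA box, beginning at -31 in GADD45B and -29 in GADD45G, counted from the annotated start. Both held a CCAAT box at a like distance, at -82 and -79, and GADD45B had another at -45. An E-box, the site of MYC and related factors, lay at -168 in GADD45B and -143 in GADD45G. Of 35116 promoters of the same length, 9.1% held the TATA motif, 34.6% the CCAAT motif, 7.26% the E-box and 0.134% all of these. That combination covers only motifs that both promoters hold, out of 7 searched, so its low share is not a test. The promoters differed in other matches. GADD45G had the response element core on the minus strand at -102, a motif present in 3.62% of promoters. GADD45B had instead an EGR site (GCGGGGGCG), on the minus strand at -159, which 5.07% of promoters hold and which overlaps none of the capitals. Neither held a GC box (GGGCGG, in 45.0% of promoters) or an AP-1 site (TGANTCA, in 7.71%). A match of letters does not show that a factor binds.

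The GADD45G probe set at the gene itself, 8156309, lies on the plus strand of chromosome 9 from 91409440 to 91411290 (coordinates of the deposited annotation, NCBI build 36) and holds 32 probes. Values are on the log2 scale of the Robust Multichip Average (RMA), and 1 unit stands for a doubling. Without doxycycline it read 7.69, 8.20 and 8.17 in experiments 1, 2 and 3, and with doxycycline 11.01, 11.52 and 11.42. Each treated array was above each untreated one, with a gap of 2.81 between the groups, while the arrays within a group spanned 0.51 and 0.50. Experiment 1 was the lowest of its group in both cases.

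The difference within each experiment was nearly the same, 3.33, 3.32 and 3.25, a mean of 3.30 ± 0.04 (SD, n = 3 pairs). That is a 9.84-fold difference in the mean and 9.53-fold to 10.02-fold in single experiments. It was the largest positive change on the array, rank 1 of 28026. CYP1A1, a cytochrome P450 of xenobiotic metabolism, came next at 3.14. Over all tested probe sets the median change was -0.01, and the 5th and the 95th percentile were -0.45 and 0.41.

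**Figure D1:**
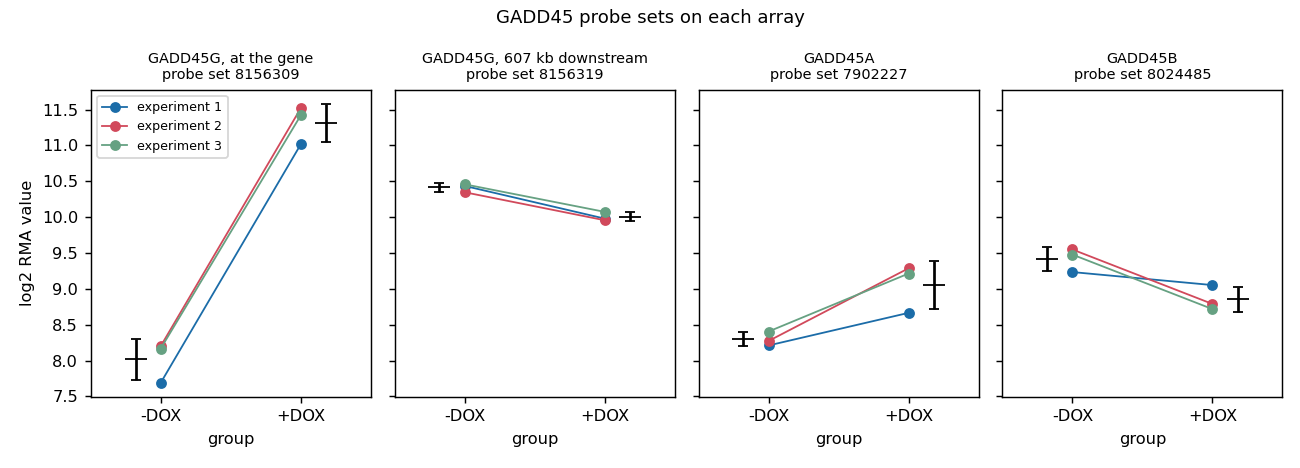
Log2 RMA values of the 4 GADD45 probe sets in the -DOX and +DOX groups. Each line joins the arrays of 1 experiment, and the black bars give the group mean with its SD (n = 3). GADD45G at its gene goes from 8.02 to 11.32, whereas the other 3 probe sets move by less than 1 unit on average and not all in the same direction.

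The other probe set listed under GADD45G, 8156319, behaved differently. It lies on the same strand of chromosome 9 from 92018226 to 92018492, 607 kb downstream of the first, and packs 37 probes into 267 bases. RefSeq gives GADD45G a length of 1544 bases in GRCh38.p14, so the distance is far larger than the gene, and 1 tested probe set without a gene name lies between them. It read 10.44, 10.35 and 10.46 without doxycycline in experiments 1, 2 and 3, and 9.98, 9.96 and 10.07 with it. Each treated array was below each untreated one. The differences within experiments were -0.46, -0.39 and -0.38, a mean of -0.41 ± 0.04 (SD, n = 3 pairs).

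The change varied as little between experiments on the distant probe set as at the gene (SD 0.04 on both), with the opposite sign. The levels within a group spanned 0.11 and 0.12 on the distant probe set and 0.51 and 0.50 at the gene. Over the 6 arrays their values correlated at -0.97 (Pearson's r, a description over arrays that share the treatment). What the distant probe set detects was not tested. If the brighter of the 2 stood for the gene, as is common when an array is reduced to 1 value per gene, GADD45G would be listed with the change of -0.41 in place of 3.30, since its mean over the 6 arrays was 10.21 against 9.67.

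GADD45A was moderately higher with doxycycline. Its probe set, 7902227, lies on the plus strand of chromosome 1 from 67923332 to 67926609 and holds 25 probes. It read 8.21, 8.27 and 8.40 without doxycycline in experiments 1, 2 and 3, and 8.67, 9.29 and 9.21 with it. The groups did not overlap, with 0.26 between the highest untreated and the lowest treated array. The treated array of experiment 1 was the low one of its group. The differences were 0.45, 1.01 and 0.81, a mean of 0.76 ± 0.28 (SD, n = 3 pairs) or 1.69-fold. RefSeq also lists a pseudogene of this gene, GADD45AP1, on chromosome 12, and its share in the signal was not tested.

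GADD45B was lower with doxycycline. Its probe set, 8024485, lies on the plus strand of chromosome 19 from 2427135 to 2429257 and holds 29 probes. It read 9.23, 9.55 and 9.48 without doxycycline in experiments 1, 2 and 3, and 9.05, 8.79 and 8.72 with it. The groups did not overlap, but the gap of 0.18 was the narrowest of the 4 probe sets. Experiment 1 was again the weak one, with a difference of -0.18 against -0.76 in each of the others. The mean was -0.57 ± 0.33 (SD, n = 3 pairs), or 1.48-fold lower.

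In limma, 12.8% of all tested probe sets passed an adjusted p of 0.05, and 24.9% had groups that did not overlap. All 4 member probe sets had groups that did not overlap, 2 higher and 2 lower with doxycycline. The family was picked on this contrast, so nothing is read from that count. The 12.8% also covers dim probe sets and 6623 without a gene symbol. The gene lists below hold only named genes, each on its probe set of highest mean. When only probe sets with a symbol were tested, 4176 passed in place of 3580, and without dim probe sets 4066. Fewer probe sets were tested in both settings, so 12.8% is a low background for the lists.

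**Figure D2:**
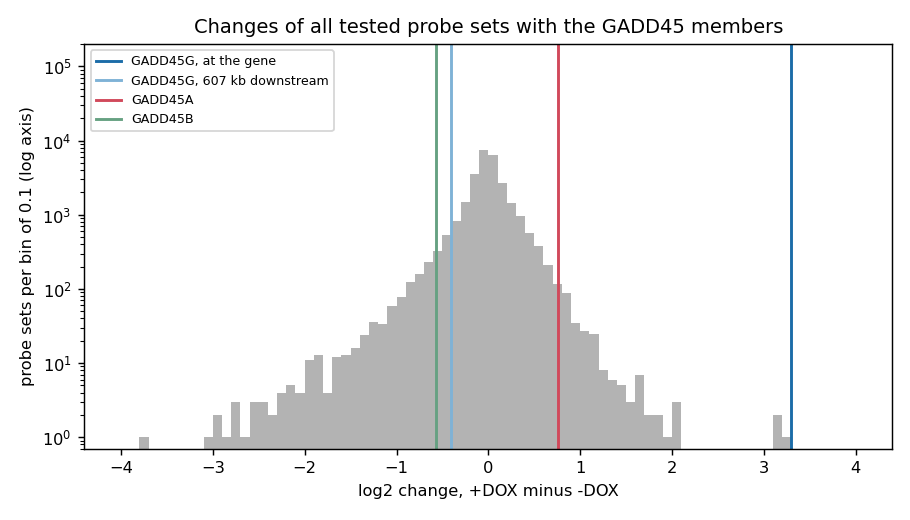
Histogram of the log2 change, +DOX minus -DOX, of all 28026 tested probe sets, with the number of probe sets per bin on a log axis. Vertical lines mark the 4 GADD45 probe sets. GADD45G at its gene stands at the right end at 3.30, GADD45A is at 0.76, and GADD45B and the distant GADD45G probe set are at -0.57 and -0.41.

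Probe sets near GADD45G are given as a description. The probe set at the gene was picked for its large rise, so smaller changes around it were fixed in advance. Within 1 Mb on either side of the GADD45G probe set at the gene, 8 probe sets of other genes or without a gene name were tested, beside the distant GADD45G probe set described above. They had a median change of 0.00 and a range from -0.64 to 0.36. Among these 8, 1 passed in limma, against 12.8% over all probe sets, so nothing is read from the count. It was CKS2, a small subunit of cyclin-dependent kinases 294 kb upstream, which fell by 0.64 (limma adjusted p = 0.0135). SECISBP2, a selenoprotein synthesis factor 286 kb upstream, was at 0.36 (limma adjusted p = 0.0588) and did not pass.

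Around GADD45A, 2 of 22 neighbours passed, both as falls, against a background of 6.63% for falls over all probe sets. WLS, which carries Wnt proteins to the cell surface and lies 413 kb downstream, fell by 1.27 (limma adjusted p = 0.000437), and DIRAS3, a Ras-like growth inhibitor 361 kb downstream, fell by 0.45 (limma adjusted p = 0.0163). Both moved opposite to GADD45A. Around GADD45B, 2 of 59 neighbours rose, against a background of 6.14% for rises, and 2 fell. LMNB2, which encodes a B-type lamin of the nuclear envelope 48 kb upstream, fell by 0.37 (limma adjusted p = 0.0361). The other fall, of 0.39, was on a probe set without a gene name. AP3D1, a subunit of the AP-3 sorting complex, rose by 0.47 (limma adjusted p = 0.0132) and MKNK2, a kinase of the initiation factor eIF4E, by 0.35 (limma adjusted p = 0.0372). The window and these neighbours were chosen after the values were seen.

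**Figure D3:**
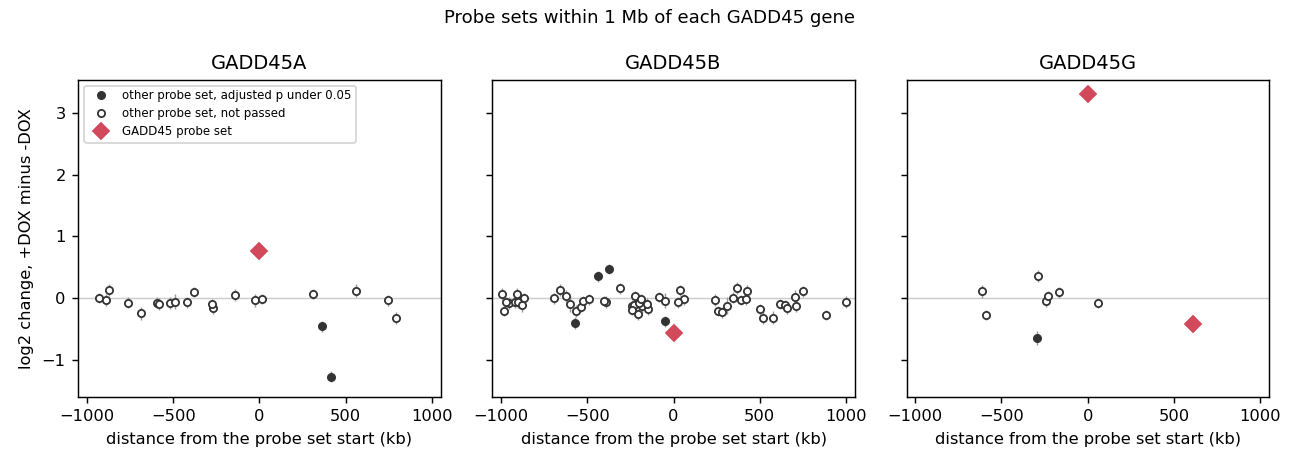
Log2 change, +DOX minus -DOX, of probe sets within 1 Mb of GADD45A, GADD45B and GADD45G against the distance from the start of the GADD45 probe set in kb. Diamonds are GADD45 probe sets, filled circles are others with a limma adjusted p under 0.05, open circles did not pass, and bars are moderated SE. GADD45G at its gene, picked for its rise, is at 3.30. Its 8 neighbours other than the distant GADD45G probe set lie between -0.64 and 0.36.

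The genes nearest to each member across the 6 arrays are given as a description. The search covered all other named probe sets and only 6 arrays in 2 groups. It therefore returns near matches in any case, mostly genes with a like change. Likeness was taken as the root mean square distance between log2 profiles, each centred on its own mean, and the 3 nearest named probe sets are given. For GADD45A these were GLT8D2, a glycosyltransferase-like gene, GSDME, a gasdermin, and DUS4L, a tRNA dihydrouridine synthase, at distances of 0.03, 0.04 and 0.06. For GADD45B they were CDC25C, the phosphatase that activates CDK1, SFN, which encodes 14-3-3 sigma, and RNU11, an RNA of the minor spliceosome, at 0.04, 0.05 and 0.05. CDC25C and SFN are known for roles at the G2/M step. For GADD45G at its gene the nearest were CLGN, an endoplasmic reticulum chaperone, CYP1A1 and LAMP3, a lysosomal membrane protein, at 0.46, 0.61 and 0.65. Few probe sets changed that much, so distances are not compared between members. For the distant GADD45G probe set they were TPST1, REEP5 and TAPBP, the last on a probe set that the file places on an alternative haplotype sequence, with distances from 0.04 to 0.05.

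The other genes named for growth arrest and DNA damage rose in part. Of 6 measured, 3 passed in limma (50% against 12.8% over all probe sets), all as rises. The median change was 0.54 against -0.01 over all probe sets. The 6 lists were chosen with earlier results of these data known, so their shares are a description and not a test. DDIT3, the transcription factor CHOP or GADD153, read 8.50, 8.24 and 8.26 without doxycycline and 9.44, 10.24 and 10.14 with it in experiments 1, 2 and 3. The groups did not overlap, and experiment 1 had the lowest treated value, as for GADD45A. DDIT3 rose by 1.61 (SE 0.19, limma adjusted p = 0.00274).

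PPP1R15A, or GADD34, which directs a phosphatase to the initiation factor eIF2-alpha, read 8.90, 8.95 and 9.04 without doxycycline and 9.88, 10.55 and 10.38 with it. It rose by 1.31 (SE 0.12, limma adjusted p = 0.00121), again least in experiment 1. DDIT4, an inhibitor of mTORC1, rose by 0.85 (SE 0.11, limma adjusted p = 0.00373). PPP1R15B (0.23), DDIT4L (-0.00) and GADD45GIP1 (-0.03), which encodes a binding partner of GADD45 proteins, did not pass. The 3 rises were called in each of the limma settings run.

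Among 20 transcription factors known to act on GADD45 genes 5 rose and 1 fell (30% against 12.8% over all probe sets). As given above, 12.8% is a low background for named genes. The median was 0.07. The rises include DDIT3, which is also in the list above, JUN (0.35) and FOXO3 (0.31). FOXO3 was read on a probe set of chromosome 17 and was at 0.01 on that of its RefSeq chromosome, 6, which leaves 4 rises. FOXO3 is named here after its values were seen. EGR1, an immediate early zinc finger factor, fell by 1.02 (SE 0.12, limma adjusted p = 0.00249), from 10.91, 11.03 and 11.37 to 10.22, 9.89 and 10.14. MYC, which is known to repress GADD45A, rose by 0.58 (SE 0.08, limma adjusted p = 0.00566), with every treated array above every untreated one. ATF3, a stress-induced factor of the ATF family, rose by 0.47 (SE 0.08, limma adjusted p = 0.0112), but its call was lost without experiment 2 (adjusted p = 0.064). ATF4 itself was at -0.19 and the NF-kB subunits NFKB1 and RELA at 0.21 and 0.12, and these did not pass. Without experiment 2 the list had 3 calls, 2 rises and 1 fall.

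Most genes of the cell cycle and replication list, not all of them known GADD45 partners, fell. Of 9 measured, 7 passed in limma (77.8% against 12.8% over all probe sets), all as falls, with a median of -0.58. CDK1, the mitotic kinase that GADD45 proteins inhibit, read 9.14, 9.39 and 9.26 without doxycycline and 8.23, 8.53 and 8.40 with it in experiments 1, 2 and 3. It fell by a like amount in each experiment, by 0.87 on average (SE 0.08, limma adjusted p = 0.00116). The B cyclins CCNB2 and CCNB1 fell by 0.63 (SE 0.08) and 0.54 (SE 0.09). CDKN1A, the inhibitor p21 that also binds GADD45 proteins, fell by 0.65 (SE 0.10), so that it and GADD45A, both classic p53 targets, lay on opposite sides of 0.

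PCNA, the replication clamp, CDC25C and the kinase AURKA were the remaining falls of this list, at -0.85, -0.58 and -0.42, and CDC25B (0.24) and WEE1 (-0.08) did not pass. The number of falls was 4 without experiment 2 and 2 without experiment 3. Calls of CCNB1 were lost in both cases (limma adjusted p up to 0.0584) and that of CDKN1A without experiment 3 (limma adjusted p = 0.0502).

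Few genes of the stress kinase cascade that GADD45 proteins feed passed the threshold. Of 15 measured genes 1 rose and 1 fell, 13.3% against 12.8% over all probe sets, which is low for named genes. The median was 0.03. When only probe sets with a symbol were tested, 4 genes of the list passed, 2 as rises and 2 as falls. MAP2K6, a kinase of p38, read 7.08, 7.12 and 6.99 without doxycycline and 6.42, 6.22 and 6.40 with it, and fell by 0.72 (SE 0.09, limma adjusted p = 0.0038). This probe set was dim, with a mean of 6.71 against a median of 7.50 over all probe set means. MAP3K7, the kinase TAK1, rose by 0.44 (SE 0.09, limma adjusted p = 0.018), a call lost without experiment 2 or 3 (adjusted p up to 0.0938), which left 1 call in the list. MAP3K4, the direct GADD45 target, was at 0.34 (SE 0.10, limma adjusted p = 0.068) and did not pass. Among the p38 and JNK genes MAPK8, MAPK9, MAPK10, MAPK11, MAPK12, MAPK13 and MAPK14, changes lay between -0.15 and 0.24 and did not pass, with MAPK9 the nearest to the threshold (limma adjusted p = 0.172).

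Of 10 partners in DNA demethylation and excision repair 1 rose and 1 fell (20% against 12.8% over all probe sets, low for named genes). The median was 0.09. TET1, an enzyme that oxidises 5-methylcytosine, read 8.13, 7.59 and 7.70 without doxycycline and 6.90, 6.76 and 6.86 with it. Its groups did not overlap, and it fell by 0.97 (SE 0.11, limma adjusted p = 0.00201). The TET1 probe set was dim, with a mean of 7.32 against a median of 7.50 over all probe set means. ERCC5, the repair nuclease XPG, rose by 0.46 (SE 0.09, limma adjusted p = 0.0191), a call lost without experiment 2 or 3 (adjusted p up to 0.0946), which left 1 call in the list. TET2 (-0.35), TET3 (0.23) and TDG (-0.11) did not pass.

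GADD45 proteins share their fold with the L7Ae family of RNA-binding proteins. Of 7 other members of that family 3 passed in limma (42.9% against 12.8% over all probe sets, low for named genes), all as rises. The median was 0.36. They were the ribosomal protein genes RPS12 (0.56, SE 0.13) and RPL30 (0.39, SE 0.09) and the small nucleolar particle gene NHP2 (0.47, SE 0.12). None of these calls held without the experiment term in limma (0 of 7, and 4 at an unadjusted p under 0.05), nor without experiment 1 (0 and 4) or experiment 3 (0 and 5). Ribosomal protein genes have near-identical copies in the genome, so their values are uncertain.

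**Figure D4:**
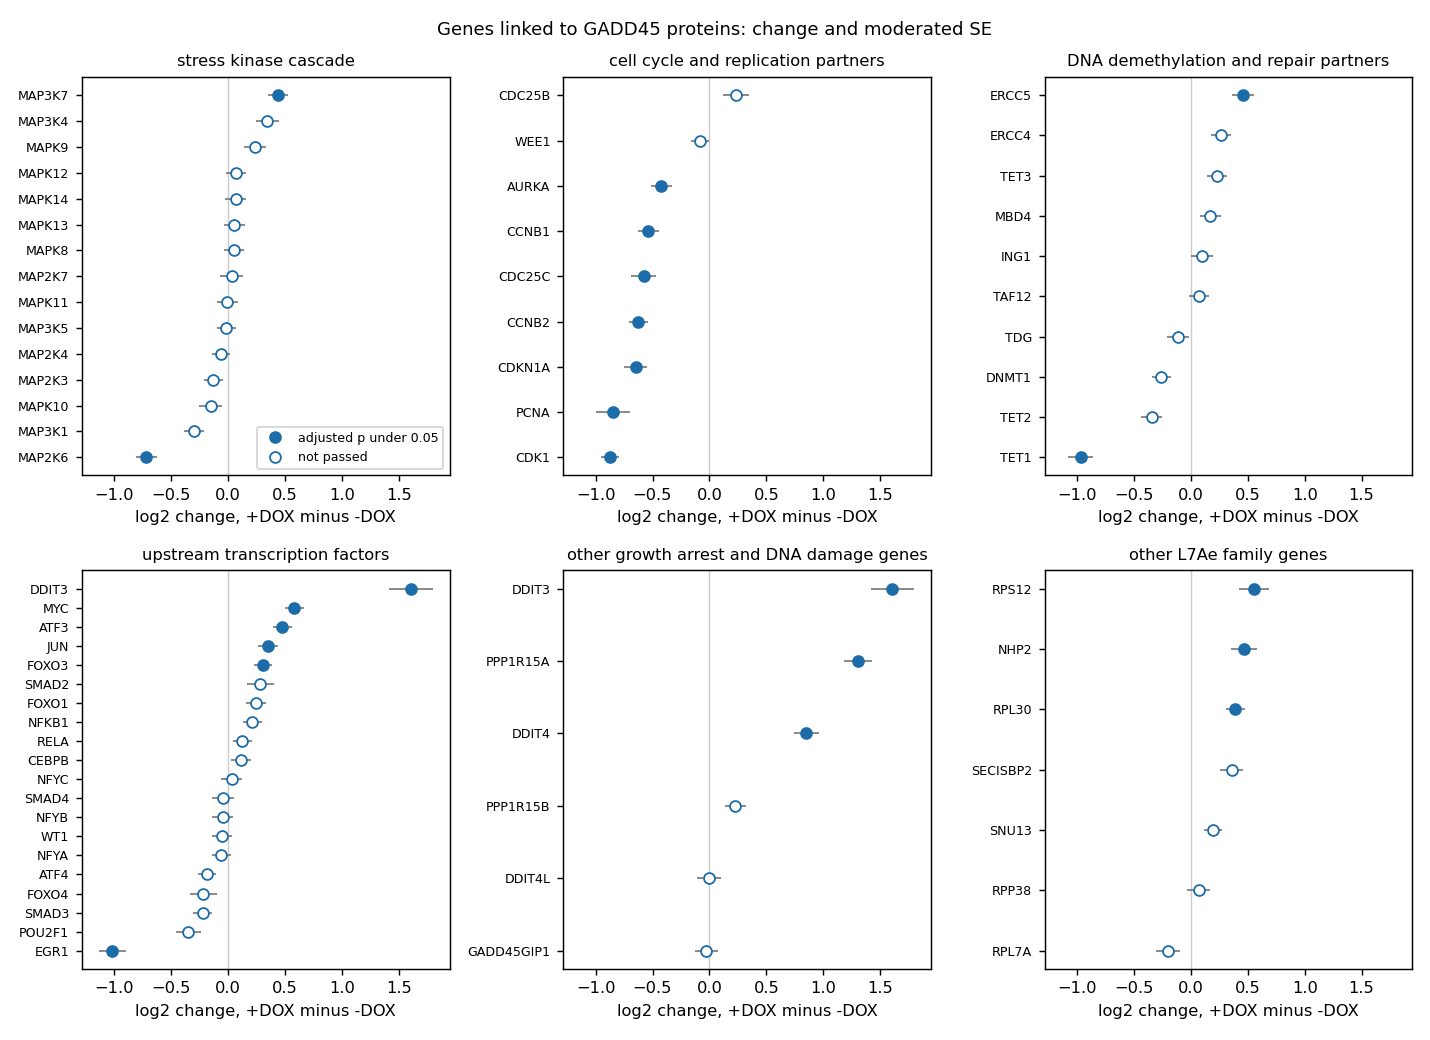
Log2 change, +DOX minus -DOX, of each measured gene in the 6 lists linked to GADD45 proteins, with moderated SE. Filled points had a limma adjusted p under 0.05 and open points did not pass. The genes of the cell cycle and replication list lie to the left of 0 except CDC25B. DDIT3, PPP1R15A and DDIT4 stand to the right at 1.61, 1.31 and 0.85.

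Arrays were close in overall level, with medians from 7.42 to 7.52. The 6 epithelial markers fixed for the line (EPCAM, CDH1, KRT7, KRT8, KRT18 and KRT19) read between 10.82 and 13.35, and 1 of them, KRT8, fell past the limma threshold. Of 4 basal markers, which read between 7.81 and 13.38, KRT14 fell by 0.48 (limma adjusted p = 0.015), and VIM (-0.65, limma adjusted p = 0.0669), KRT5 (0.03) and KRT17 (0.24) did not pass. The part of these markers in the GADD45 values was not tested. Of 11 markers of fibroblasts, endothelium, blood cells and adipocytes, which read between 4.02 and 8.96, 0 passed in limma and 2, CD3E (-0.21) and CD68 (0.28), had an unadjusted p under 0.05. The arrays carry no detection call, so no level was called absent.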

How the data were processed

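Gene expression was taken from the log2 values of 6 arrays that the authors deposited after RMA (background correction, normalization between arrays and a summary per probe set), per the design text of the series. The submitters' processing notes list R 2.11.1 and RMA. The authors' workbook carries the same log2 values (largest difference 5e-09) and the annotation. Of 33297 probe sets, 976 were empty on every array and 4428 were controls, with 133 in both classes, which left 28026 for testing. Gene names were updated through the RefSeq table of GRCh38.p14, and in the lists each gene was read on its probe set of highest mean.

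Treated and untreated arrays were compared with limma 3.58.1 in R 4.3.3, by a linear model with a term for the experiment and empirical Bayes moderation, with Benjamini-Hochberg adjustment over all 28026 probe sets and a threshold of 0.05. SE are moderated. The procedure was tested on simulated data. The pairing follows the design text, where the arrays come from independent experiments and each probe had a paired t-test. Arrays were matched by the replicate number in the sample titles. Deviations of paired arrays from their group means correlated at 0.48, 0.17 and 0.10 in experiments 1, 2 and 3. Precision is limited by having 3 arrays per group. Members and the 6 gene lists were chosen with earlier results of these data known. Up to 4 passing genes of lowest p were named from a list, or 2 if none passed, and others named beside them were chosen after their values were seen. The level of the gene targeted by the hairpin is not reported here. Alternatives covered pairing, variance, scaling, filters, left-out experiments, the choice of probe set and the methods' t-test.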

Additional observations from a re-analysis of the deposited data

How the results depend on the processing

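The 4 member changes kept their sign in each setting run. Leaving out an experiment or taking group medians could not turn a sign. The differences of each member shared 1 sign and its groups did not overlap, so nothing is read from this. Over the left-out experiments they ranged from 0.63 to 0.91 for GADD45A, from -0.76 to -0.47 for GADD45B, from 3.28 to 3.32 for GADD45G at its gene and from -0.42 to -0.39 on its distant probe set. The difference of group medians moved the GADD45G values beyond their small spread, to 3.25 and -0.46. The choice of probe set, made after seeing the data, turned the GADD45G change. It was -0.41 on the probe set with the higher mean and 3.30 on the other. Without the replicate block 2409 probe sets passed in place of 3580, the L7Ae list went from 3 calls to 0 (4 at an unadjusted p under 0.05), the transcription factors from 6 to 4, and the other lists kept their number of calls. With an experiment left out, calls ranged from 1355 to 2853 over all probe sets (1909 without experiment 2). In the same settings they ranged from 1 to 2 for stress kinases, from 2 to 6 for the cell cycle list and from 1 to 2 for demethylation partners. For transcription factors they ranged from 3 to 5 and for the L7Ae list from 0 to 2. With only named probe sets tested, stress kinases had 4 calls. The methods' t-test gave 0 calls after adjustment over all probe sets and in each of the 6 lists, and 4449 at an unadjusted p under 0.05. Of 17 genes named from the lists by the rule, 9 kept their call in each limma setting run, 8 lost it in at least 1, and 0 reversed. The filter on dim probe sets, at the median of all probe set means, gave 4066 calls, left out MAP2K6 and TET1 and kept the number of calls in each list within 1.5 times. Detection calls were not used here.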

Other observations

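The probe set chosen by its mean level lay off the chromosome that RefSeq gives for the gene in 3 cases among the lists, a check made after seeing the data. FOXO3, a forkhead factor of stress responses, passed on a probe set of chromosome 17 with a change of 0.31, while its probe set on chromosome 6, where RefSeq places the gene, was at 0.01 (limma adjusted p = 0.966). NHP2 was read on chromosome 10 with a change of 0.47 and also passed on chromosome 5, its RefSeq chromosome, with 0.43 (limma adjusted p = 0.0198). RPL7A, a ribosomal protein gene of chromosome 9, was represented by a probe set of chromosome 18, with a change of -0.20. With probe sets on the RefSeq chromosome alone, the transcription factors had 5 calls in place of 6, and the other 5 lists kept their number of calls.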
